A study of Mus musculus with 7 samples.

Results

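The killer cell lectin-like receptor (Klr) genes were described in type 2 innate lymphoid cells (ILC2s) of the mouse heart. All rows of the count table whose symbol begins with Klr, a letter from a to k and a digit were taken, which gave 30 genes of 55335 in the table. Of these, 2 had no count in any library (Klra10 and Klra11-ps), 28 had at least 1 count, and 20 passed the filter on low counts. The choice used no measured value.

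ILC2s are tissue lymphocytes without antigen receptors that carry ST2, the receptor of interleukin 33. They had been sorted as CD45+ cells negative for lineage markers and positive for ST2. The naive group held 3 libraries of ILC2s from resting hearts, and the allograft group held 4 libraries from hearts transplanted from Balb/C donors into C57BL/6 recipients, which reject them acutely, collected on day 7. The time label of the naive libraries also reads 7 days. RNA had been amplified as full-length cDNA with a kit for single cells. Each library pooled the cells of 4 to 7 hearts, so the pools are the replicates. The labels gave no genotype, no age, no sex, no strain for the naive hearts and no word on whether the sorted cells of a graft came from donor or recipient.

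Klr proteins are C-type lectin-like receptors of the cell surface, best known from natural killer (NK) cells. Inhibitory members carry a tyrosine motif that recruits phosphatases, and activating members pair with adaptors such as DAP10 or DAP12. Members of the Klra group (Ly49) bind classical MHC class I. Klrc proteins (NKG2) pair with the Klrd1 protein, CD94, and bind the class Ib molecule Qa-1. Klrb1 proteins (NKR-P1) bind Clec2 proteins, Klrk1 (NKG2D) binds stress-induced ligands, and Klrg1 binds cadherins. Klrg1 is widely used as a surface marker of mature ILC2s. The Klra cluster differs in gene content between inbred mouse strains.

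All 30 genes lie on chromosome 6 in the GENCODE M21 annotation of mm10, and 27 of them fall within 1.78 megabases (chr6:128609227-130386874), the natural killer gene complex. The exceptions are Klrg1 (chr6:122270596-122282882, minus strand), Klrg2 (chr6:38625693-38637242, minus strand) and Klra2 (chr6:131219223-131247362, minus strand). Of the 30 genes, 4 are annotated as pseudogenes. Neighbouring members resemble each other, and 18 of the 30 share at least one stretch of 75 bases with a transcript of another gene. Of the 75-base stretches of Klra8, 19.7% also occur in other genes, mostly in Klra14-ps (16.0%). The share was 25.0% for Klrc1, mostly with Klrc2 (24.7%), 12.1% for Klra9, 5.71% for Klra7 and 0.342% for Klra4. Klrb1b shares 23.8% and Klrb1c 11.4% of such stretches with Gm44511, which overlaps both on the same strand. The share was 0 for Klrg1, Klrd1 and Klrk1. Since the handling of such reads was not stated, values of single Klra and Klrc genes are uncertain by the reads that could have been split.

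The promoters of Klra4, Klra8 and Klra9 are shown because these 3 genes shared a pattern of detection that no other member had: no count in any naive library and counts in all 4 allograft libraries. Each sequence is the 250 bases before the annotated start, from RefSeq on GRCm38.p6, on the minus strand of chromosome 6. They lie at chr6:130067272-130067521 for Klra4, chr6:130129899-130130148 for Klra8 and chr6:130193113-130193362 for Klra9. Capitals mark the TATA motif TATAAA on either strand.
Klra4: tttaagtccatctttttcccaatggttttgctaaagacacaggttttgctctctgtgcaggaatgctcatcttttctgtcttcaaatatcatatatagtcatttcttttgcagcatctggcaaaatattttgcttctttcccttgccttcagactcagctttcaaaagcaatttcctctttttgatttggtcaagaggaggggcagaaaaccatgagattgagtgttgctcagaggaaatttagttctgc
Klra8: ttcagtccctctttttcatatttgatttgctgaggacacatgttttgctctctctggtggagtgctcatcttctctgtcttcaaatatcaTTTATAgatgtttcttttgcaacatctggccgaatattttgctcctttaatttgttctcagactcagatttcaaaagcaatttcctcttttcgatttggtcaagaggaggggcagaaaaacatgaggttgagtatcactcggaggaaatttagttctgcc
Klra9: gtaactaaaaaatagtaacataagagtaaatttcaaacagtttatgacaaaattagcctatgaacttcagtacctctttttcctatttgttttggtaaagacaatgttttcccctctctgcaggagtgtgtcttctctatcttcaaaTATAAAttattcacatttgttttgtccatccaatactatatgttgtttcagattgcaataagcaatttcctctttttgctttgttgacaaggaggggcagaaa
The windows of Klra4 and Klra8 were 84.5% identical in a global alignment, and Klra9 was 46.3% identical to Klra4 and 47.8% to Klra8. Over the 55 pairs of 11 Klra windows the identity ran from 37.9% to 84.5%, with a median of 48.4%. A TATA motif was found for Klra8 and Klra9 and not for Klra4. Among the 23 members with a RefSeq window, 8 held it (34.8%), against 13.0% of 27025 windows of all genes. For the GATA motif AGATAA, searched on both strands, it was 2 of 23 members (8.70%) against 10.3% of all windows. For the Runx motif TGTGGTT it was 3 of 23 (13.0%) against 4.46%, for the ETS motif GGAAGT 3 of 23 (13.0%) against 20.0%, and for the STAT motif TTCNNNGAA 2 of 23 (8.70%) against 7.18%. The T-box motif GGTGTGA was in none of the 23 windows and in 3.31% of all windows. These are matches of letters only.

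The libraries held 29107326 to 53044907 counts, and the 3 naive totals (43591167 to 53044907) overlapped the 4 allograft totals (29107326 to 44023726). A count of 0 allows up to 3 counts, or 0.0566 to 0.103 CPM (counts scaled to the library total) depending on the library, for counting error only, since amplified reads are not independent molecules. Naive replicate 2 stood apart. Mitochondrial genes took 26.5% of its counts against 2.04% to 3.11% in the other 6 libraries. The 15 listed ILC2 genes summed to 1182 CPM there, against 12817 and 16081 CPM in naive replicates 1 and 3 and 12205 to 12670 CPM in the allografts. Its Il1rl1 level, the ST2 gene, was 6.79 CPM against 343 to 756 CPM elsewhere. Results on the receptors are therefore given with and without that library, and for other genes the calls made without it are named.

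More members were detected in every allograft library than in any naive library. Counts were found for 3, 12 and 9 members in naive replicates 1 to 3 and for 24, 19, 20 and 25 in allograft replicates 1 to 4. Naive replicate 1, the deepest library, held only Klrg1, Klrk1 and Klrb1b. At least 1 count was found for 15820, 20254 and 13864 genes of any kind in the naive libraries and for 19235 to 21354 in the allografts. The part of overall detection in the number of members found was not tested. Of the 30 members, 15 had no count in any naive library, and 13 of these had counts in at least 1 allograft. In bulk libraries, fewer cells of a type and less RNA per cell cannot be told apart.

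**Figure D1:**
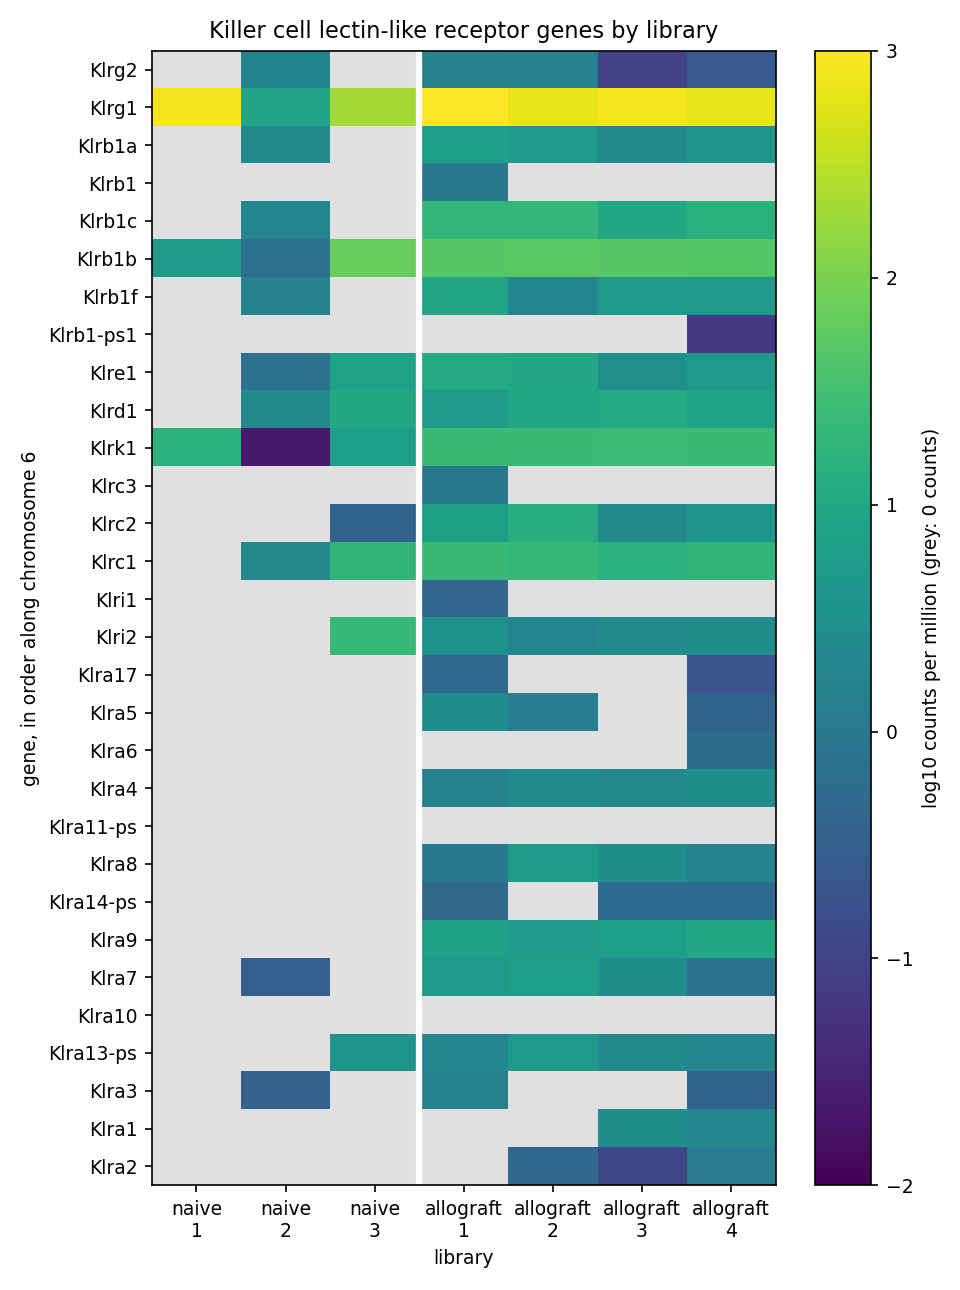
Heat map of log10 CPM of the 30 receptor genes (rows, in order along chromosome 6) in the 3 naive and 4 allograft libraries (columns), with grey for 0 counts. Klrg1 is the brightest row in every library, and the Klra rows are grey in naive libraries except for Klra13-ps, Klra7 and Klra3.

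No member passed the test over all libraries. With edgeR's quasi-likelihood test, 0 of the 20 tested members had an adjusted p under 0.05, where 0.0353% of all 17015 genes did and 0.0294% were called higher. At an unadjusted p under 0.05, 6 members were higher in allografts (Klra4, Klra5, Klra8, Klra9, Klra14-ps and Klrc2), against 6.41% of all genes tested, and 0 were lower, against 3.86%. DESeq2's Wald test called 4 members, Klra4, Klra8, Klra9 and Klrc2, all higher, where it called 4.31% of genes higher and 2.09% lower. Voom with quality weights called 0 members, where 0.00588% of genes were called lower and none higher. The lowest allograft value lay above the highest naive value for 8 of the 20 (Klra4, Klra7, Klra8, Klra9, Klrb1c, Klrb1f, Klrc2 and Klrk1), against 12.5% of all genes tested. For 0 of the 20 was every allograft below every naive library, against 2.15%. The fitted log2 fold change was above 0 for 19 of the 20, with a median of 1.83, against 8408 of 17015 genes and a median of -0.01. Setting the 5 members that had no naive count to their lower bounds could not move this median. All 5 bounds, at log2 values of 2.70 to 6.85, lie above it. With DESeq2 size factors the median of all genes moved to -0.20 and that of the members to 1.60, with 18 of 20 above 0. Genes such as Klra4 passed the filter through the allograft libraries alone, so these counts describe the members that passed and not the whole family.

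Without naive replicate 2, edgeR called 5 of 22 tested members higher in allografts: Klra4, Klra9, Klrb1a, Klrb1c and Klrb1f. Among all 18037 genes then tested, 3.00% were called higher and 0.0998% lower. All 5 had 0 counts in both remaining naive libraries. They thus entered this test through the allograft libraries alone, where they were high, and the 5 calls are a description of these genes only. The median fitted log2 fold change of the 22 members was 7.21, or 3.41 with 13 of them set to their lower bounds. For all genes the fitted median was 0.23. Without naive replicate 1 no member was called, where 0.510% of genes were called higher and 0.0584% lower. Without naive replicate 3 no member was called either, where 0.0372% of genes were called higher and none lower.

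Klrg1 (ENSMUSG00000030114), the cadherin receptor, was the most abundant member in every library. The naive libraries, in the order of their replicate numbers, stood at 818, 8.397 and 216 CPM, and the allografts at 1042, 669, 870 and 669 CPM. Naive replicate 1 lay inside the allograft range and the other 2 naive libraries below it. Per length it stood at 216 ± 260 FPKM (SD, n = 3) in naive and 497 ± 108 FPKM (SD, n = 4) in allograft libraries. Its log2 fold change was 1.22 (SE 1.06, edgeR adjusted p = 0.793), with an exact two-sided permutation p of 0.0857. Without naive replicate 2 it was 0.62 (SE 0.52, edgeR adjusted p = 0.559), and without naive replicate 1 it was 2.77 (adjusted p = 0.276). Klrg1 made up 97.6%, 36.2% and 60.7% of the members' counts in naive replicates 1 to 3 and 82.2% ± 3.44 (SD, n = 4) in the allografts. Klrg2, a relative of Klrg1, was at 0, 1.80 and 0 CPM in naive and 0.0979 to 1.70 CPM in allograft libraries. Its log2 fold change was 0.02 (edgeR adjusted p = 0.999) and its direction changed between settings. When naive replicate 2 was left out, both remaining naive libraries were at 0 (adjusted p = 0.141).

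In the allografts the order of levels per length was Klrg1, Klrb1b (19.4 ± 0.489 FPKM), Klrc1 (8.51 ± 1.44), Klrd1 (5.83 ± 1.58), Klra9 (4.99 ± 1.43), Klrb1c (4.88 ± 1.44), Klrk1 (2.93 ± 0.138) and Klra7 (2.62 ± 1.71, SD, n = 4 each). Klrg1, at 410 to 634 FPKM, did not overlap Klrb1b at 18.9 to 20.1 FPKM, and Klrb1b did not overlap Klrc1 at 6.63 to 10.02 FPKM. From Klrc1 downward, the range of each gene in this order overlapped that of the next. The remaining members had mean FPKM below that of Klra7.

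**Figure D2:**
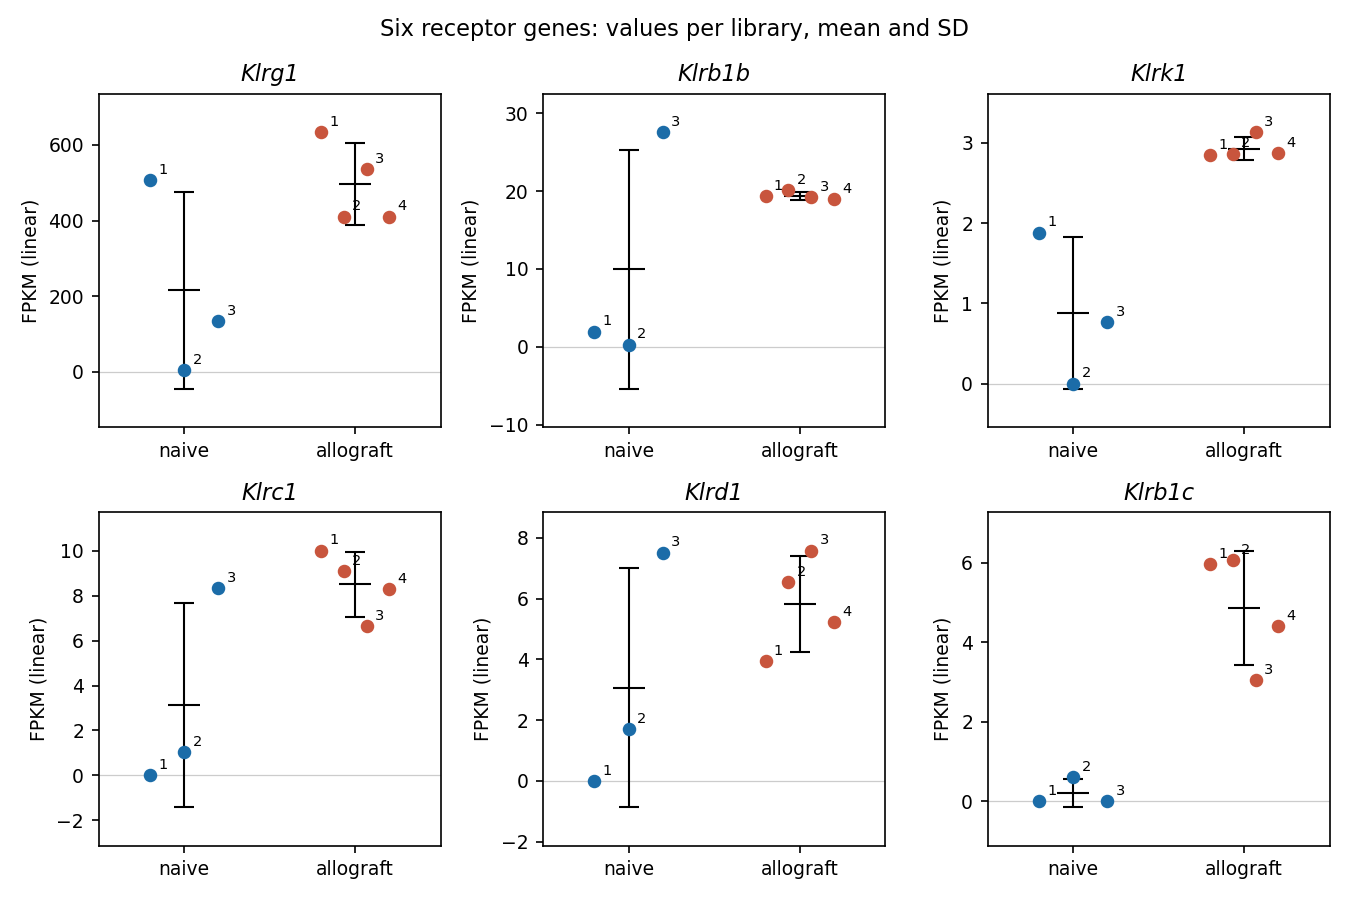
FPKM on a linear axis of 6 receptor genes in naive (blue) and allograft (red) libraries, each point labelled with its replicate number, with horizontal bars for the mean and whiskers for the SD. The allograft values of Klrb1b and Klrk1 lie close together, whereas the naive values of Klrg1, Klrb1b, Klrc1 and Klrd1 run from near 0 to the allograft range or above it.

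Klrk1 (ENSMUSG00000030149), the activating receptor NKG2D, varied among naive and was nearly constant among allograft libraries. Naive levels were 15.5, 0.0220 and 6.26 CPM, the second of these from a single count. The deposited FPKM of Klrk1 in that library was 0.000243, less than 1 fragment would give by the ratio of FPKM to CPM in the other libraries, so that count may have been rounded up from an estimate. In allograft replicates 1 to 4 it had 23.8, 23.9, 26.0 and 23.8 CPM. Every allograft library exceeded every naive library (exact two-sided permutation p = 0.0286, the smallest that 7 libraries can give). The log2 fold change was 1.74 (SE 1.34, edgeR adjusted p = 0.760), and without naive replicate 2 it was 1.13 (SE 0.48, adjusted p = 0.252). Without naive replicate 1 it was 2.88 (adjusted p = 0.374).

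Klrd1 and Klrc1 overlapped between the groups. Klrd1 (ENSMUSG00000030165), which encodes CD94, stood at 0, 2.40 and 10.9 CPM in naive libraries and at 5.91, 9.78, 11.2 and 7.80 CPM in the allografts, so that naive replicate 3 lay within the allograft range. Its log2 fold change was 0.80 (SE 1.65, edgeR adjusted p = 0.940), and 0.59 (SE 1.86, adjusted p = 0.910) without naive replicate 2. Without naive replicate 3 it was 2.30 (adjusted p = 0.57). Klrc1, the inhibitory partner NKG2A, had 0, 2.26 and 18.7 CPM in naive and 23.1, 21.0, 15.2 and 19.0 CPM in allograft libraries. Its log2 fold change was 1.36 (SE 1.65, edgeR adjusted p = 0.871). It was 0.99 (adjusted p = 0.833) without naive replicate 2 and 3.56 (adjusted p = 0.38) without naive replicate 3. Both genes were at 0 in naive replicate 1 and near the allograft level in naive replicate 3.

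Klrc2, the activating partner NKG2C, separated the groups. It had 0, 0 and 0.390 CPM in naive and 6.97, 13.0, 2.52 and 4.29 CPM in allograft libraries, with a log2 fold change of 5.58 (SE 2.14, edgeR adjusted p = 0.405). DESeq2's Wald test gave an adjusted p of 0.0203. The log2 fold change without naive replicate 2 was 5.02 (edgeR adjusted p = 0.236), and without naive replicate 3 both remaining naive libraries were at 0 (adjusted p = 0.135). Klrc3 had counts in allograft replicate 1 alone (1.02 CPM). Klre1, which pairs with Klri1 or Klri2, had 0, 0.725 and 7.89 CPM in naive and 11.2, 10.2, 3.18 and 4.74 CPM in allograft libraries (log2 fold change 1.24, edgeR adjusted p = 0.898). For Klre1 it was 0.82 (adjusted p = 0.872) without naive replicate 2 and 3.79 (adjusted p = 0.38) without naive replicate 3. Klri2 was the only tested member with a fitted value below 0 over all libraries. It had 0, 0 and 22.5 CPM in naive and 3.66, 1.94, 2.62 and 2.99 CPM in allograft libraries, so the log2 fold change of -1.48 (SE 2.24, edgeR adjusted p = 0.909) rested on naive replicate 3. Without naive replicate 2 it was -2.08 (adjusted p = 0.598). Without naive replicate 3 every allograft stood above 2 naive libraries at 0 (adjusted p = 0.135). The inhibitory Klri1 had counts in allograft replicate 1 alone (0.454 CPM).

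Among the Klrb1 genes, the inhibitory receptor gene Klrb1b was shared by both groups. Klrb1a, Klrb1c and Klrb1f had naive counts in replicate 2 alone, and Klrb1 and Klrb1-ps1 had none in naive libraries. Klrb1b (ENSMUSG00000079298) had 5.01, 0.703 and 69.5 CPM in naive and 50.2, 51.7, 49.3 and 48.8 CPM in allograft libraries. Naive replicate 3 lay above and the other 2 naive libraries below all allografts (log2 fold change 0.93, SE 1.18, edgeR adjusted p = 0.876). For Klrb1b it was 0.35 (adjusted p = 0.882) without naive replicate 2 and 4.05 (adjusted p = 0.135) without naive replicate 3. Klrb1c (ENSMUSG00000030325), which encodes the NK1.1 antigen of C57BL/6 mice, had 0, 1.96 and 0 CPM in naive and 20.6, 20.8, 10.4 and 15.1 CPM in allograft libraries. All allografts exceeded all naive libraries, with a log2 fold change of 4.10 (SE 2.19, edgeR adjusted p = 0.623). With naive replicate 2 left out, both remaining naive libraries of Klrb1c were at 0 (edgeR adjusted p = 0.0252). It entered that fit through the allograft libraries alone, so this p only describes the gene.

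Klrb1f, a receptor for Clec2 proteins, had 0, 1.76 and 0 CPM in naive and 9.09, 1.94, 5.19 and 5.05 CPM in allograft libraries, with a log2 fold change of 2.61 (edgeR adjusted p = 0.788). With naive replicate 2 left out, both remaining naive libraries of Klrb1f were at 0 (edgeR adjusted p = 0.0437). Klrb1a had 0, 2.46 and 0 CPM in naive and 6.77, 5.43, 2.45 and 3.88 CPM in allograft libraries. Allograft replicate 3 lay just below naive replicate 2, and without the latter the remaining naive libraries were at 0 (edgeR adjusted p = 0.0433). Klrb1f and Klrb1a entered that fit through the allograft libraries alone, so these p-values only describe them. Klrb1 itself had counts in allograft replicate 1 alone, and Klrb1-ps1 had 2 counts in all. The Klrb1 genes together summed to 5.01, 6.88 and 69.5 CPM in naive and 67.4 to 87.7 CPM in allograft libraries.

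The Klra genes had few counts in naive libraries. Their summed level was 0, 0.681 and 3.85 CPM in naive replicates 1 to 3 and 22.1, 27.0, 21.1 and 23.2 CPM in allograft replicates 1 to 4. In naive replicate 3 the whole sum came from the pseudogene Klra13-ps, and in naive replicate 2 it came from Klra7 and Klra3. The strain of the naive hearts was not given and the Klra cluster differs between strains, so strain and group cannot be told apart for the naive zeros of Klra genes, nor for those of Klrb1c. The sum is less exposed than single genes to reads split between near-identical members.

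Klra9 (ENSMUSG00000033024), the Ly49I receptor, had 0 counts in the 3 naive libraries and 7.00, 5.86, 6.22 and 10.4 CPM in the allografts. This put Klra9 at least 116-fold higher (edgeR adjusted p = 0.144), and the adjusted p without naive replicate 2 was 0.0344. Klra4 (ENSMUSG00000079852), the activating receptor Ly49D, had 0 counts in naive and 1.57, 2.62, 2.45 and 2.92 CPM in the allografts. The difference was at least 37.5-fold (edgeR adjusted p = 0.144). Without naive replicate 2 its adjusted p was 0.0437. Klra8 (ENSMUSG00000089727), the activating receptor Ly49H, which recognises a cytomegalovirus protein, had 0 counts in naive and 1.04, 5.21, 3.16 and 1.68 CPM in allograft libraries. It was at least 43.5-fold higher (edgeR adjusted p = 0.144), and the adjusted p was 0.0526 without naive replicate 2. All 3 genes entered the fits through the allograft libraries alone, where they were high, so these p-values only describe them. They are the 3 genes whose promoters are printed above, chosen by this pattern of detection. The same pattern was seen in 2.21% of all genes tested and in 1.85% of the 28138 genes with a count.

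Klra7, the inhibitory receptor Ly49G, had 0, 0.308 and 0 CPM in naive and 5.20, 6.39, 3.11 and 0.721 CPM in allograft libraries. All allografts exceeded all naive libraries (log2 fold change 4.65, SE 2.20, edgeR adjusted p = 0.551), and the adjusted p was 0.0574 without naive replicate 2. Klra13-ps had 0, 0 and 3.85 CPM in naive and 2.02, 5.15, 2.35 and 1.99 CPM in allograft libraries, with overlap between the groups. Its log2 fold change was 1.09 (edgeR adjusted p = 0.936), and 0.50 (adjusted p = 0.925) without naive replicate 2. Of the other Klra genes, Klra5 reached 2.70 CPM in allograft replicate 1 and was at 0 in replicate 3. Klra1 had 3.16 and 2.16 CPM in allograft replicates 3 and 4 and was at 0 elsewhere. Klra2, Klra3, Klra6, Klra14-ps and Klra17 had at most 1.54 CPM in any library. Klra17, the Ly49Q receptor known from plasmacytoid dendritic cells, had 23 and 6 counts in allograft replicates 1 and 4.

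**Figure D3:**
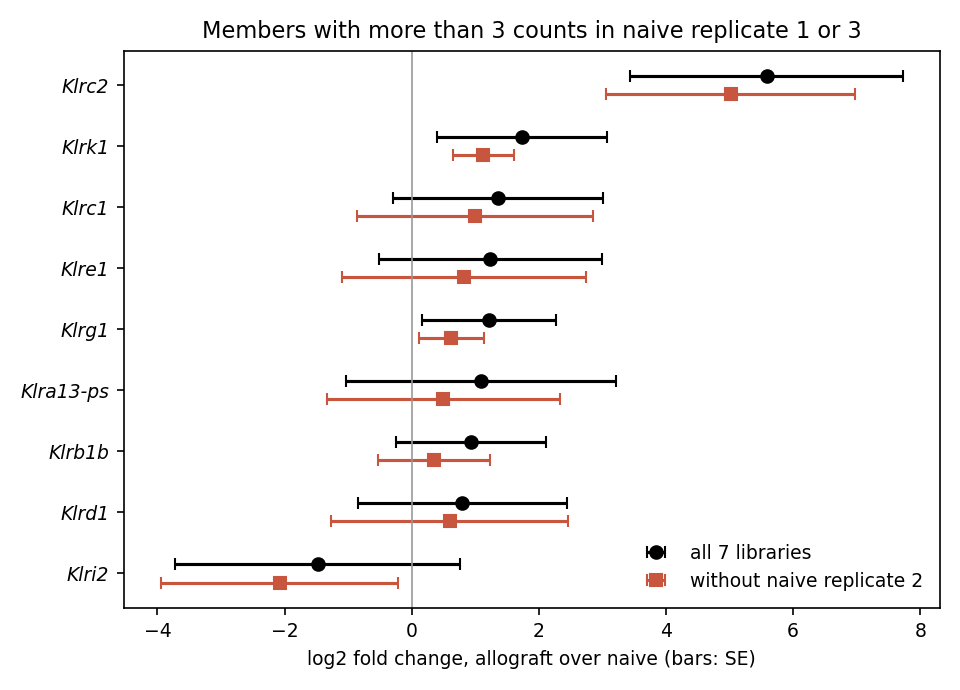
Fitted log2 fold change (allograft over naive, with bars for the SE) of the 9 members given library by library that had more than 3 counts in naive replicate 1 or 3. Black circles use all 7 libraries and red squares leave out naive replicate 2. Klri2 alone lies below 0, and the Klrk1 bar narrows from an SE of 1.34 to 0.48.

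Most adaptors and signalling partners of these receptors had counts in both groups. Of 18 listed genes, 16 were tested and 0 passed, with 14 above 0 and a median log2 fold change of 0.93, against -0.01 for all genes. At an unadjusted p under 0.05, 3 were higher and 0 lower, against 6.41% and 3.86% of all genes tested. Cd247, which encodes the CD3 zeta chain, was the 1 gene called higher without naive replicate 2, where 3.00% of all genes were. It had 0 counts in both remaining naive libraries. Hcst, which encodes the Klrk1 adaptor DAP10, had 127, 3.49 and 176 CPM in naive and 126 to 146 CPM in allograft libraries. Tyrobp, which encodes the Ly49D and Ly49H adaptor DAP12, had 3.41, 26.0 and 91.6 CPM in naive and 78.6 to 93.8 CPM in allograft libraries. Ptpn6, the phosphatase SHP-1, had 20.7, 21.0 and 5.16 CPM in naive and 45.0 to 67.5 CPM in allograft libraries, without overlap (log2 fold change 1.58, edgeR adjusted p = 0.388). The kinase gene Syk had at most 1.62 CPM in naive and 10.2 to 14.7 CPM in allograft libraries (adjusted p = 0.470). Sh2d1a, the adaptor SAP, had 0 counts in naive and 0.825 to 4.97 CPM in allograft libraries (edgeR adjusted p = 0.144).

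Of the 20 listed ligand genes, 16 were found, 10 were tested and 0 passed, with 7 above 0 and a median log2 fold change of 0.52. Cdh1 and Cdh2 were called higher without naive replicate 2, where 3.00% of all genes were. Both had 0 counts in the remaining naive libraries, so they entered that test through the allograft libraries alone. Over all libraries Cdh1 was below 0 (log2 fold change -3.16, edgeR adjusted p = 0.760). The Qa-1 gene H2-T23, the ligand of CD94 with NKG2A, had 211, 44.7 and 153 CPM in naive and 171 to 225 CPM in allograft libraries. H2-K1 had 1597, 206 and 1560 CPM in naive and 1718 to 1926 CPM in allograft libraries, and H2-D1 had 4966, 674 and 5034 CPM against 3823 to 5467 CPM. Clec2d, the ligand of Klrb1b, had 6.65, 0.879 and 0 CPM in naive and 14.0 to 15.8 CPM in allograft libraries. Clec2i, the ligand of Klrb1f, had 2.55, 0 and 0 CPM in naive and 3.01 to 12.5 CPM in allograft libraries. For both the groups did not overlap, and neither passed (edgeR adjusted p = 0.718 and 0.730). H60b, a ligand of NKG2D, had 0 counts in naive and 0.196 to 1.07 CPM in allograft libraries (adjusted p = 0.145). The cadherin ligand gene Cdh1 had 86.5 CPM in naive replicate 2, 0 in the other naive libraries and 2.75 to 6.84 CPM in the allografts, and Cdh2 had 0, 0.506 and 0 CPM against 2.07 to 5.19 CPM.

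Markers of other cells that bear these receptors moved with them in part. All 19 found genes of the NK cell and ILC1 list had a count. They summed to 119 to 609 CPM in naive and 906 to 1019 CPM in allograft libraries, and 0 of 18 tested genes passed. The largest parts of the allograft sums were Gzma (185 to 265 CPM), Il2rb (191 to 241) and Ccl5 (154 to 177). In naive replicates 1 to 3, Gzma had 174, 11.3 and 57.9 CPM, Il2rb 132, 0.989 and 208, and Ccl5 19.1, 16.0 and 96.6. Of the 18, 17 were above 0, with a median log2 fold change of 1.67. At an unadjusted p under 0.05, 5 were higher and 0 lower, against 6.41% and 3.86% of all genes tested. The NK receptor gene Ncr1 was at 0, 2.37 and 28.8 CPM in naive and 11.4 to 26.8 CPM in allograft libraries, so that it did not separate the groups. Eomes, which marks NK cells over other innate lymphoid cells, was at 0.641, 0 and 0 CPM in naive and 2.59, 4.81, 0 and 1.75 CPM in allograft libraries. Itga2 and Tbx21 had 0 counts in naive libraries, with 6.57 to 11.9 CPM and 1.74 to 7.95 CPM in the allografts (edgeR adjusted p = 0.144 for both). Leaving out naive replicate 2, 4 of the 18 were called higher, where 3.00% of all genes were. They were Itga2 (edgeR adjusted p = 0.0344), Tbx21 (0.0446), Itga1 and Fasl. Like the 5 receptor genes called then, these had 0 counts in both remaining naive libraries. Itga1 was the gene below 0 over all libraries (log2 fold change -2.51, edgeR adjusted p = 0.815). It had 0, 51.1 and 0 CPM in naive and 3.38 to 5.08 CPM in allograft libraries. Il12rb2 was at 0 in naive and 0.250 to 3.74 CPM in allograft libraries.

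T cell genes, 16 of 16 with a count, summed to 42.6 to 1528 CPM in naive and 1457 to 1672 CPM in allograft libraries. Of 13 tested, 9 were above 0 and 0 passed, with a median log2 fold change of 0.39. Below 0 were Cd3d, Tcrg-C2, Themis and Cd3e. Without naive replicate 2 the median was -0.19 and 0 were called. Cd3e was at 0.154 to 1.24 CPM in all 7 libraries, whereas Cd3g had 79.0, 6.00 and 124 CPM in naive and 175 to 219 CPM in allograft libraries. Cd8b1 was at 0 in naive libraries and in allograft replicate 2 and at most 2.64 CPM elsewhere. Trac, a constant segment of the T cell receptor, had 7.80, 5.06 and 10.6 CPM in naive and 12.5 to 19.6 CPM in allograft libraries. On the lower side, Cd3d had 1.68, 2.48 and 32.5 CPM in naive and 3.57 to 8.64 CPM in allograft libraries (log2 fold change -1.13, edgeR adjusted p = 0.821). Cd4, not tested over all libraries, had 11.6 CPM in naive replicate 3 and at most 0.721 CPM in allograft libraries.

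Plasmacytoid dendritic cell genes, 10 of 10 with a count, summed to 105 to 260 CPM in naive and 278 to 328 CPM in allograft libraries. Of 10 tested, 7 were above 0, 3 below 0 (Spib, Tcf4 and Ccr9) and 0 passed, with a median log2 fold change of 0.80. Irf8 was at 10.6 to 25.5 CPM in naive and 72.1 to 93.3 CPM in allograft libraries (edgeR adjusted p = 0.144). Bst2 was at 24.8 to 63.4 CPM against 65.2 to 92.5 CPM, and Ly6d at 0, 7.10 and 3.88 CPM against 24.1 to 50.7 CPM. In the other direction, Spib was at 0, 0 and 24.2 CPM in naive and 1.20 to 4.14 CPM in allograft libraries. Siglech, at 0, 4.29 and 0 CPM against 2.34 to 6.56 CPM, was the 1 gene called higher without naive replicate 2 (adjusted p = 0.0437). In that fit 3.00% of all genes were called higher. Naive replicate 2 lay within the allograft range of Siglech and both remaining naive libraries were at 0. The gene entered that fit through the allograft libraries alone, so the call only describes it. Macrophage, monocyte and neutrophil genes, 12 of 12 with a count, summed to 2.49, 288 and 453 CPM in naive and 202 to 327 CPM in allograft libraries. Of 8 tested, 5 were above 0, 3 below 0 (Csf1r, Lyz2 and Adgre1) and 0 passed, with a median log2 fold change of 0.64. Csf1r, the macrophage growth factor receptor, was at 0, 26.2 and 10.99 CPM in naive and 0.636 to 2.78 CPM in allograft libraries (log2 fold change -3.53, edgeR adjusted p = 0.615). The macrophage gene Mertk was at 0, 15.8 and 0 CPM against at most 0.136 CPM. S100a8 was at 0, 6.79 and 0 CPM in naive and 23.2 to 45.8 CPM in allograft libraries, and S100a9 at 0, 2.66 and 0 CPM against 9.26 to 16.2 CPM. With naive replicate 2 left out, 4 of 10 were called higher (Cd68, Ly6c2, S100a8 and S100a9), against 3.00% of all genes. All 4 were at 0 in both remaining naive libraries.

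Of the 15 ILC2 genes tested, 11 were above 0 and 0 passed, with a median log2 fold change of 0.59. Below 0 were Icos, Hpgds, Id2 and Il17rb. Without naive replicate 2 the median was -0.02 and 0 were called. The smallest p then belonged to Icos (log2 fold change -0.88, edgeR adjusted p = 0.0945). Icos had 648, 21.9 and 817 CPM in naive and 360 to 506 CPM in allograft libraries. Over all libraries the smallest p belonged to Thy1, at 64.3, 2.11 and 85.0 CPM in naive and 80.5 to 149.7 CPM in allograft libraries. Areg, the growth factor amphiregulin, was at 1037, 19.7 and 698 CPM against 1055 to 1289 CPM, and the cytokine gene Il13 at 12.7, 0 and 8.47 CPM against 16.8 to 22.9 CPM. The part of these cells in the receptor values was not tested.

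**Figure D4:**
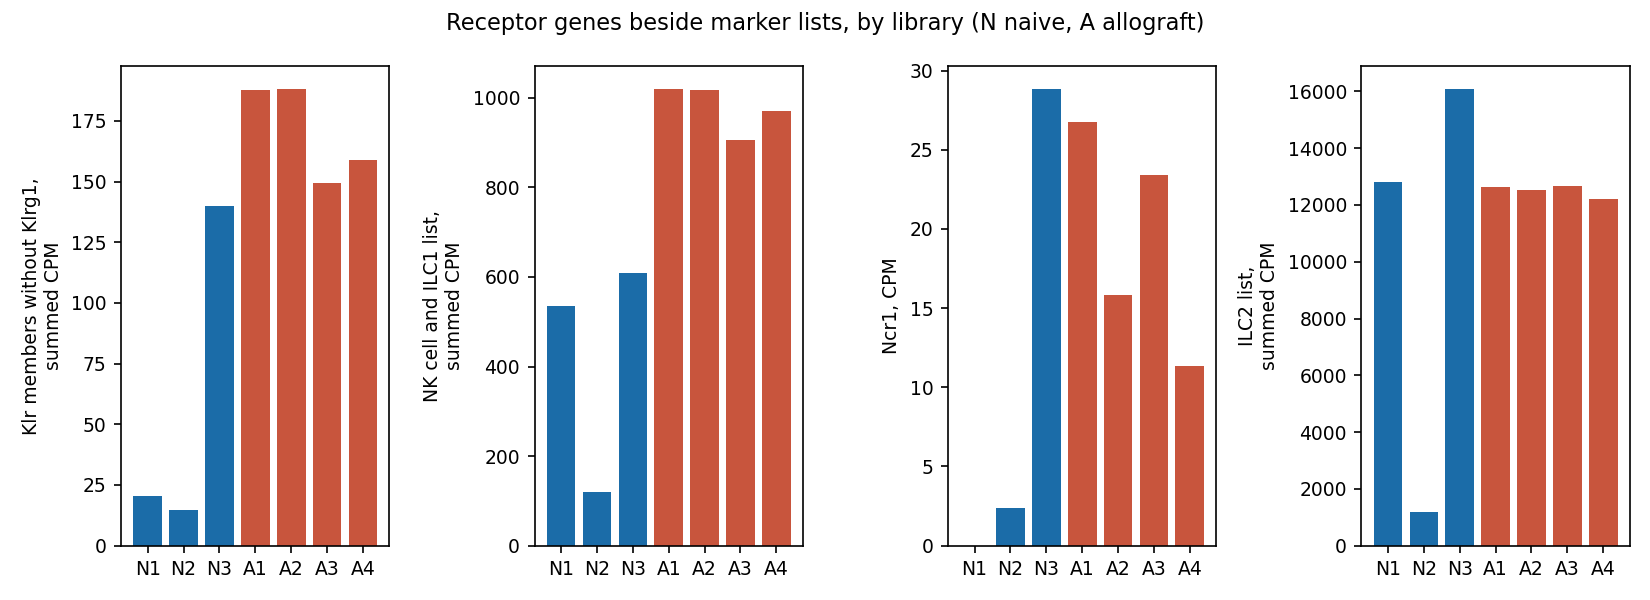
Bars from 0 per library (N naive in blue, A allograft in red) for the summed CPM of the receptor genes without Klrg1, the summed CPM of the NK cell and ILC1 list, the CPM of Ncr1 and the summed CPM of the ILC2 list. The receptor sum is 149 to 188 CPM in allografts against 20.5, 14.8 and 140 CPM in naive replicates 1 to 3, and Ncr1 is highest in naive replicate 3.

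Without Klrg1, the receptors summed to 140 CPM in naive replicate 3, close to the 149 CPM of allograft replicate 3, and to 20.5 and 14.8 CPM in naive replicates 1 and 2. In naive replicate 3 that sum was made of Klrb1b, Klri2, Klrc1, Klrd1, Klre1, Klrk1, Klra13-ps and Klrc2. All 8 had counts in each of the 4 allograft libraries, beside 10 to 16 other members.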

How the data were processed

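RNA of sorted ILC2s was measured in 3 naive and 4 allograft libraries. The authors deposited counts per Ensembl gene, all whole numbers, and FPKM values (fragments scaled by gene length and library size) for the same 55335 identifiers. The submitters' processing notes list FastQC 0.11.5, STAR 2.5.3a, StringTie 1.3.1c, DESeq2 1.16.1 and the build mm10, without roles. The counting settings, the strand and the treatment of reads that map to several genes were not given in the sources used here. Replicate numbers came from the titles.

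Members were the rows whose symbol matched the family pattern. Counts were tested with edgeR 4.0.16 in R 4.3.3 (quasi-likelihood fit, TMM, filterByExpr, no covariate) over 17015 genes, with Benjamini-Hochberg adjustment over all of them at 0.05. The fit was tested on simulated data with a common spread and changes planted only in better detected genes. They held no outlying library and no gene set to 0 in the naive group, so such cases were not covered. CPM is per deposited total. Fold bounds use a floor of 3 counts per naive library. Single genes were also compared by exact two-sided permutation over 35 splits of log2(CPM + 0.1). Alternatives were DESeq2 size factors, the Wald test of DESeq2 1.42.0, voom with quality weights (limma 3.58.1), other filters (none, or a mean of at least 50 counts), a replicate block and leaving out each library. Annotation came from GENCODE M21 (GRCm38, the same assembly as mm10), matched by Ensembl identifier, and promoters from RefSeq on GRCm38.p6.

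A member was given library by library if it had at least 1 CPM in at least 3 libraries, and Klrg1, Klrd1 and Klrk1 whatever their values. In the other lists the genes with the smallest p were named, up to 3 a list, beside H2-T23, H2-K1, H2-D1, Clec2d, Clec2i, Cdh1, Hcst and Tyrobp, which the rule names. Defining markers and genes that went the other way (Ncr1, Eomes, Cd3e, Siglech, Spib, Mertk and genes called in 1 alternative) were added after their values were seen. So were Cd3d, Cd4, Icos and the other list genes named as below 0. The genes with the largest parts of the T cell and NK cell sums (Trbc1, Trbc2, Tcrg-C4, Gzma, Il2rb and Ccl5) were also added then. Members and lists were chosen with earlier results of these data known.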

Additional observations from a re-analysis of the deposited data

Results flagged for a closer look

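Over the 4 allograft libraries, 22 values (17 genes and 5 sums) were examined for a single library far from the other 3, and 2 stood apart. Chance alone marks about 1 in 20 such groups. Klra13-ps had 5.153 CPM in allograft replicate 2 against 1.993 to 2.35 CPM in the other allografts. Klrk1 had 25.97 CPM in allograft replicate 3 against 23.78 to 23.88 CPM in the others, a small gap beside the naive values of 15.5 CPM and less.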

How the results depend on the processing

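The number of members called was 0 in the edgeR fit of all libraries, 4 with DESeq2's Wald test and 5 without naive replicate 2. Over the fits that each left out 1 library it ran from 0 to 5, and in the other alternatives it was 0. Of the genes in the 7 other lists, 0 were called in the fit of all libraries, 7 with DESeq2's Wald test and 12 without naive replicate 2, with a range of 0 to 12 over the fits that left out 1 library. Without any one allograft library, edgeR called 0 genes of any kind, with 848 to 1074 at an unadjusted p under 0.05. Klrg1, Klrd1 and Klrk1 kept their direction and stayed above the threshold in all 13 alternatives, as did the direction of the 4 sums in FPKM and without naive replicate 2. Of 216 values of the 17 members given library by library, 198 kept direction and side, 9 newly passed and 9 changed sign. Klrg2 fell from 0.02 to -0.37 with DESeq2 size factors, -0.36 with DESeq2's Wald test, -0.54 without naive replicate 1 or 3, -0.55 without allograft replicate 1 and -0.37 without allograft replicate 2. Over the fits that left out 1 library, Klrg2 ran from -0.55 to 8.19 and Klri2 from -2.08 to 9.76. Klri2 changed from -1.48 to 5.60 with voom weights, 6.67 with the replicate block and 9.76 without naive replicate 3. The cause was not tested, except that naive replicate 3 alone held naive counts of Klri2. The replicate block called 0 members and 0 genes of any kind. The correlation of deviations for same-numbered libraries was 0.05, -0.03 and 0.02. The highest value with a library of another number was 0.03, 0.07 and 0.06. With so few libraries this does not settle whether replicate numbers pair them. DESeq2 gave no adjusted p for 6 members with counts. Low counts limit most Klra genes: only Klra9 reached 5 CPM in all 4 allografts.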
